A study of Mus musculus with 46 samples.

Results

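Lung RNA of Nrf2 mutant and wild type mice was compared before any exposure to oxygen, the basal state from which the study's oxygen time course started. The comparison used the 11 arrays that the labels place at 0 h, of 46 in all, and each array's genotype was taken from its title. Wild type lung was measured on 2 arrays of each of 3 array types, called A, B and C. Mutant lung was measured on 2 arrays each of types B and C and on 1 array of type A, so 5 mutant arrays faced 6 of wild type. The other 35 arrays, 18 of the mutant and 17 of wild type, came from lung after 24, 48 and 72 h in 100% oxygen. They were used to ask whether each difference seen at 0 h was also present under oxygen. The labels describe the mutant only as mutated in Nrf2. They give neither its allele nor the strain, age and sex of the mice, and they do not say whether replicates 1a and 1b are separate animals. Each p-value therefore measures the spread between these arrays, which may be technical.

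The Nfe2l2 gene encodes NRF2, which KEAP1 holds in the cytoplasm of unstressed cells and marks for degradation. Oxidants and electrophiles release this transcription factor, and with a small Maf partner it binds antioxidant response elements in the promoters of genes for glutathione synthesis, conjugation, quinone reduction and NADPH supply. Some of these genes also depend on NRF2 in the unstressed lung, where airway epithelium and macrophages carry much of the detoxifying capacity.

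The mutant 0 h arrays stood apart from all other arrays in their control probe sets. The ratio of signal at the 3′ end to that at the 5′ end of Gapdh, which rises when RNA is shortened or copied incompletely, was 1.82 on the mutant array of type A, 1.67 and 1.95 on type B and 1.86 and 2.26 on type C. The other arrays lay between 0.858 and 1.54. The same ratio for Actb was 1.42 to 2.21 on the mutant 0 h arrays and 0.149 to 1.25 on the others. The mean correlation of a mutant 0 h array with the other arrays of its type was 0.916 on A, 0.898 and 0.903 on B, and 0.883 and 0.892 on C, below every other array of the type. All 5 mutant 0 h arrays and replicate 1a of wild type at 24 h, on B and C, were deposited with 6 decimals, and all other arrays with more. Genotype at 0 h cannot be told apart from these properties, because every mutant 0 h array carries them and no wild type 0 h array does.

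**Figure D1:**
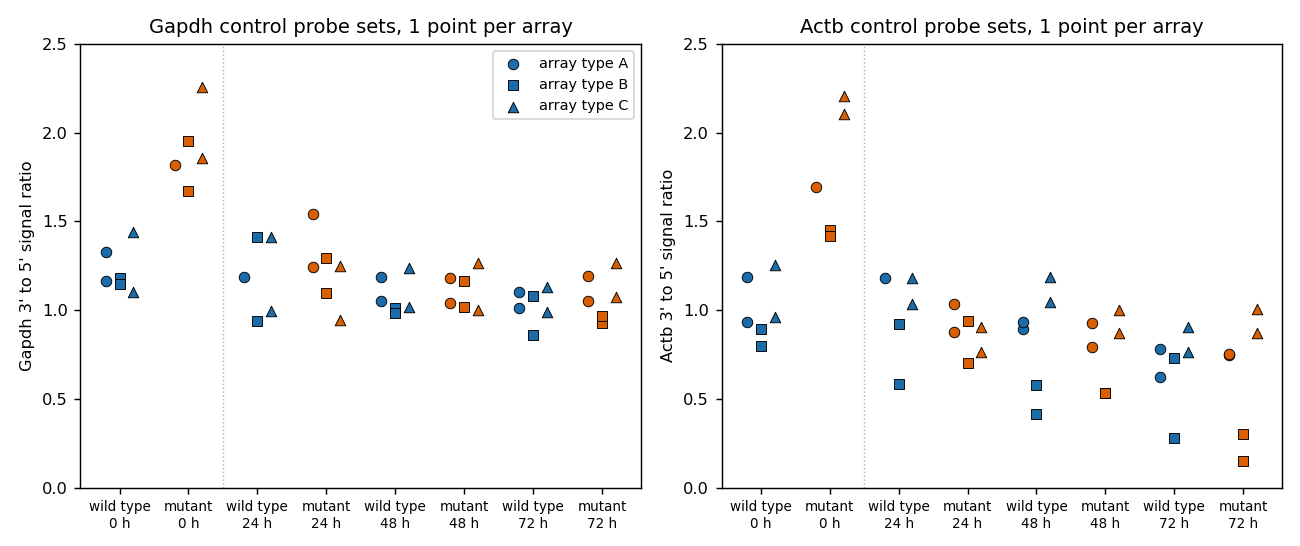
Ratio of 3′ to 5′ signal of the Gapdh (left) and Actb (right) control probe sets, 1 point per array, by genotype (blue wild type, orange mutant), time in oxygen and array type (marker shape). The 5 mutant arrays at 0 h lie above all other arrays in both panels.

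At 0 h, 12 of 25 squamous epithelial, 9 of 20 skeletal muscle and 19 of 76 respiratory chain genes were called higher in the mutant. Nfe2l2 and 8 of 68 NRF2 targets were called lower. Of 26821 probe sets tested, 738 (2.75%) were called, 393 (1.47%) higher and 345 (1.29%) lower in the mutant. By array type the share called was 4.3% on A, 3.11% on B and 1.0% on C. A probe set was called when limma's adjusted p was under 0.05 over all tested probe sets. Under oxygen the mean genotype difference over 24, 48 and 72 h was tested. There 336 probe sets (1.25%) were called, 0.589% of all tested higher and 0.664% lower. The 0 h and oxygen means come from different arrays. Both tests share 1 estimate of the spread from all groups of an array type, so their calls are not independent. The calls of both comparisons overlapped in the same direction for 41 probe sets, which is 5.56% of the 0 h calls and 12.2% of the oxygen calls. These 41 differences are described below as persisting. A further 459 of the 0 h calls did not persist, meaning that the 0 h difference itself differed from the oxygen difference in the same fit, where 624 probe sets (2.33%) were called, 1.26% in the positive and 1.06% in the negative direction. The remaining 238 were unresolved, being neither called under oxygen nor called as different from it.

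Among persisting probe sets 27 were lower and 14 higher, while among those that did not persist 196 were lower and 263 higher. Over all 738 calls at 0 h, 304 (41.2%) had the same sign under oxygen. In 614 of them (83.2%) the mutant 0 h arrays lay beyond every other array of the type, oxygen arrays included, against 23.4% of all tested probe sets. This held for 412 of the 459 that did not persist (89.8%) and for 13 of the 41 that persisted (31.7%). Both classes were defined with these same oxygen arrays, so nothing is read from that contrast.

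**Figure D2:**
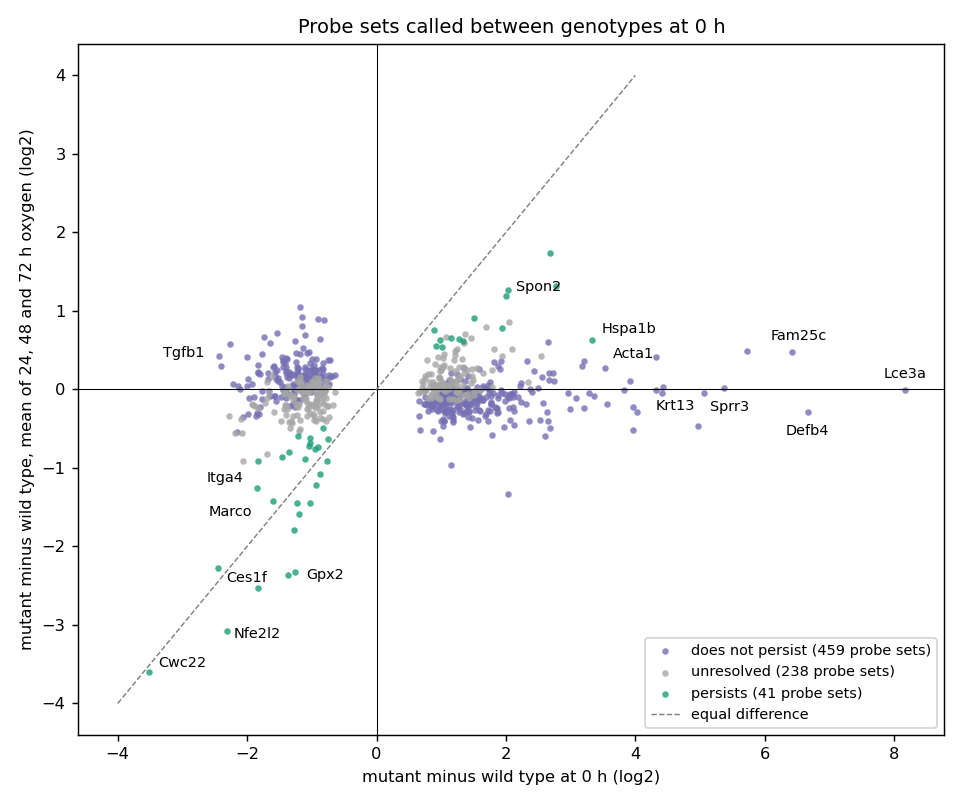
Genotype difference (mutant minus wild type, log2) of the 738 probe sets called at 0 h, at 0 h on the horizontal axis and as the mean of the 3 oxygen times on the vertical axis. The 459 that did not persist (purple) lie along the horizontal line at 0, the 238 unresolved (grey) around it, and the 41 that persisted (green) toward the dashed line of equal difference.

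The number of calls changed when single arrays were left out. Without replicate 1b of the mutant at 0 h, which is the mutant's only array of type A, 152 probe sets were called at 0 h and 7 persisted, all from B and C. Without replicate 1a or 1b of wild type at 0 h, 163 and 277 were called, and 17 and 20 persisted. Without replicate 1b of wild type at 24 h, the only array of that group on type A, 13 persisted and 124 did not. Leaving out replicate 1b of the mutant at 24 h or replicate 1a of wild type at 48 h left 25 persisting in each case, and 293 and 285 that did not persist. Without replicate 1a of the mutant at 24 h or at 48 h, or replicate 1b of wild type at 48 h, 298, 284 and 242 did not persist. With the Gapdh ratio as a covariate, 120 were called at 0 h and 8 persisted, 6 of them among the 41.

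Nfe2l2, the gene named in the genotype, was measured by a probe set of array type A. Its intensity was 2428 and 2659 on the wild type 0 h arrays and 448.4 on the mutant array. Under oxygen the wild type arrays ran from 3319 through a median of 3425 to 4488 and the mutant arrays from 302.5 through 382 to 423.8. Mutant and wild type arrays did not overlap at any time, and the mutant 0 h array lay above every mutant oxygen array and below every wild type array. The difference was −2.31 ± 0.25 (SE, log2; adjusted p = 0.00124, limma), a 4.97-fold lower level, and −3.08 ± 0.13 under oxygen. The Gapdh ratio as a covariate left −1.78, with an adjusted p of 0.0759. The probe set is on array type A, so it checks no label of the 4 mutant 0 h arrays of types B and C.

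Both Cwc22 and Itga4, which lie near Nfe2l2 on chromosome 2, were lower too. Cwc22, which encodes a splicing factor that also deposits the exon junction complex, had the largest decrease among the persisting genes. On type C its intensity was 2773 and 3205 in wild type and 275.7 and 85.04 in the mutant at 0 h, and 41.59 to 317.8 in the mutant under oxygen against 1640 to 2819 in wild type. No mutant array reached a wild type array. The difference was −3.52 ± 0.37 (log2; adjusted p = 0.000429) at 0 h and −3.60 ± 0.21 under oxygen. A second probe set on type A was called at both as well (−1.22 and −1.45). The remaining Cwc22 probe sets, on type C and dimmer, were not called (−0.35 and 0.42 at 0 h, −0.35 and −0.10 under oxygen). Cwc22 was called at 0 h and persisted in each of the 25 settings in which it was tested.

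Itga4, the alpha 4 integrin subunit with which leukocytes bind VCAM1, was 1266 and 1024 in wild type and 114.8 and 388.9 in the mutant at 0 h. The difference was −1.84 ± 0.30 (adjusted p = 0.00722), and it was uneven over the oxygen times: −0.16 at 24 h, −1.46 at 48 h and −2.13 at 72 h. A dimmer Itga4 probe set on type A was not called (−0.20 at 0 h, −0.28 under oxygen). In gene order, Cwc22 lies 17 and Itga4 20 protein-coding genes from Nfe2l2. Of the 31 genes that persisted, these 2 lie within 50 protein-coding genes of Nfe2l2 (6.45%, Nfe2l2 itself not counted), against 0.454% of the genes not called at 0 h. Of the others measured in that window, named after their values were seen, Dusp19 (1.33) and Fkbp7 (0.90) were called higher and Serping1 (−0.83) lower at 0 h, and none of these persisted. The rest were not called at 0 h, among them Agps and Ttc30b, the nearest genes measured on one side, and Mtx2, the nearest on the other.

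Detoxification enzymes of the NRF2 pathway were also among the decreases that persisted. Gpx2, a selenium glutathione peroxidase of epithelia, had an intensity of 1458 and 1836 in wild type and 637.3 on the mutant array at 0 h. Under oxygen it ran from 2259 through 3296 to 4900 in wild type and from 510.3 through 556.2 to 685.8 in the mutant. The mutant at 0 h thus lay within the range of the mutant under oxygen and below all wild type arrays. The difference was −1.26 ± 0.22 (2.40-fold; adjusted p = 0.0183) at 0 h and −2.32 ± 0.11 under oxygen. The difference between these 2 values had an adjusted p of 0.0573.

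Ces1f, a carboxylesterase that hydrolyses esters and drugs, was 518.8 and 535.1 in wild type and 133.6 and 119.9 in the mutant at 0 h on type B. In the mutant under oxygen it ran from 14.99 to 70.41, lower than in the mutant at 0 h. The 0 h difference was −1.37 ± 0.19 (adjusted p = 0.00235) and the oxygen difference −2.36 ± 0.11. No fold is given, because the mutant lay below the value used to filter dim probe sets, where a difference depends on the constant added before the log2. Ces1f was the persisting gene of the NRF2 lists that was also called with the Gapdh ratio as a covariate (−1.57, adjusted p = 0.039). Its fitted difference at 0 h was smaller than that under oxygen by 0.99 (adjusted p = 0.0345, limma). The mutant lay below the filter value at 0 h and under oxygen, so this value depends on the added constant too. Nothing is read from it.

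Glutathione transferases of the mu class, which conjugate glutathione to electrophiles, were lower as well. Gstm1 was 15630 and 14590 in wild type and 6434 in the mutant at 0 h on type A. On type C it was 7125 and 8453 in wild type and 3614 and 2447 in the mutant. These probe sets were called, at −1.22 ± 0.24 (adjusted p = 0.0254) and −1.35 ± 0.28 (adjusted p = 0.0285), and their oxygen differences were −0.60 and −0.80. The other 3 Gstm1 probe sets were not called at 0 h (−1.26, −0.12 and −0.68, with −0.87, 0.15 and 0.20 under oxygen). Gstm3 was 3271 and 3783 in wild type and 1662 in the mutant (−1.05 ± 0.22, adjusted p = 0.0375), and a dimmer Gstm3 probe set was not called (−0.40). On the called probe sets the mutant 0 h arrays lay below every other array, mutant oxygen arrays included. Their names mark them as shared by a family of similar sequences, so signal from different mu class genes cannot be told apart.

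Among carbonyl and aldehyde metabolising enzymes, Akr1b8, an aldo-keto reductase, was 1851 and 1694 in wild type and 777.1 in the mutant (−1.11 ± 0.24, adjusted p = 0.0371). Aox3, an aldehyde oxidase, was 3291 and 2711 in wild type and 1398 on both mutant arrays (−1.03 ± 0.18, adjusted p = 0.0119). Its oxygen difference was −1.44 ± 0.10. Ces1g was called on a dim probe set of type A (212.6 and 161.5 against 37.15; −1.19 ± 0.24, adjusted p = 0.0321), but its brighter probe set on type B gave −0.11 ± 0.21 and was not called. For Ces1d, another carboxylesterase, a probe set with 6125 and 6871 in wild type and 3365 in the mutant was called (−0.93). A brighter one was not (−0.71). On type C a dimmer Ces1d probe set was called neither at 0 h (−0.18) nor under oxygen (0.42).

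**Figure D3:**
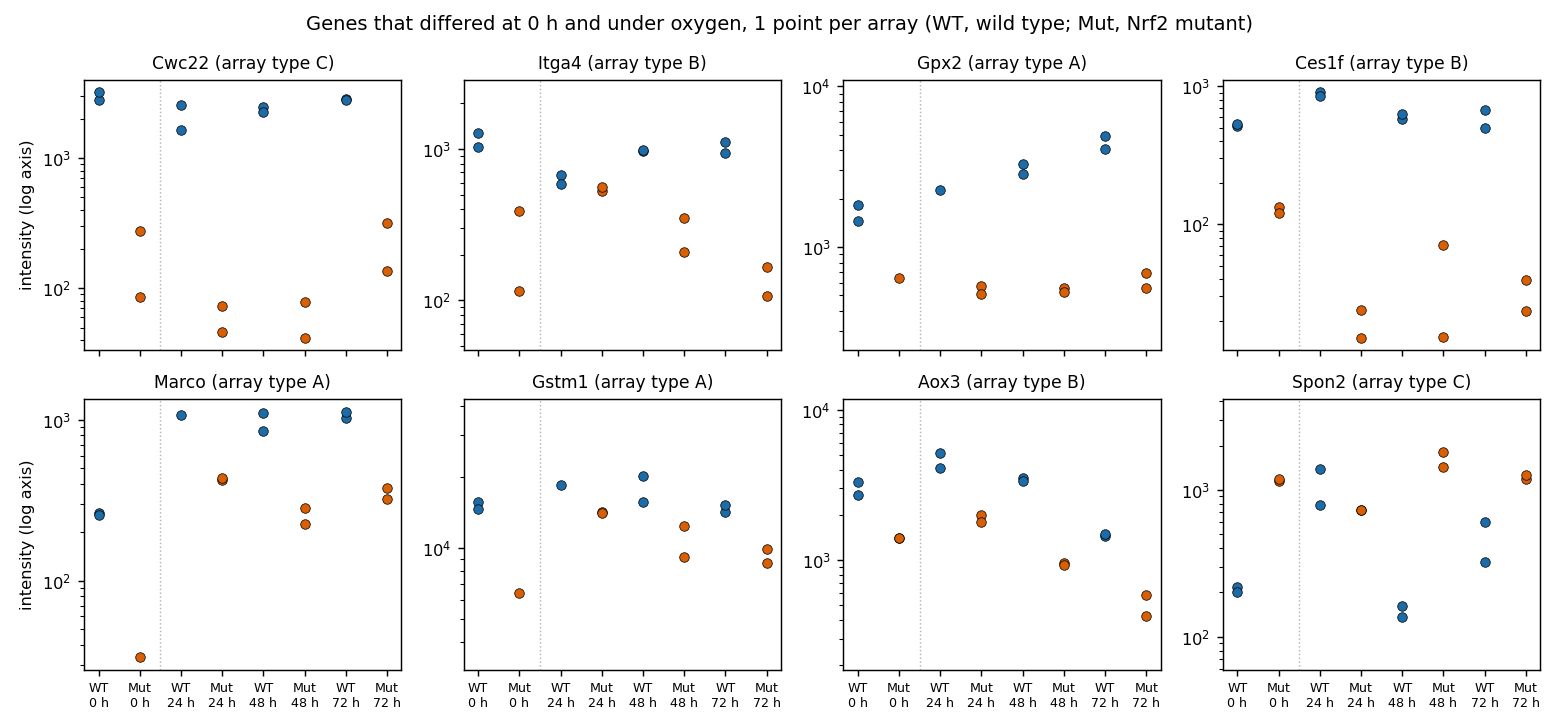
Intensity on a log axis, 1 point per array, of 8 genes whose genotype difference at 0 h persisted under oxygen (blue wild type, orange mutant; type A has 1 mutant array at 0 h and 1 wild type array at 24 h). In the 7 genes with lower values the mutant 0 h arrays lie below the wild type 0 h arrays, and for Spon2 above them.

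Most NRF2 targets were not called at 0 h. Over the lists of NRF2 targets, 68 genes were tested by their brightest probe set, and 8 were called lower and 0 higher at 0 h, where 1.64% of all genes were called lower. At an unadjusted p under 0.05, 17.5% of all probe sets passed at 0 h. Of the 8, Ces1f, Gpx2, Akr1b8, Gstm1 and Gstm3 persisted, and Abcc3, Ephx1 and Gstt3 were unresolved. Under oxygen 24 of the 68 were called lower and 0 higher, against 0.858% of all genes lower. The median difference of the 68 was −0.34 at 0 h and −0.39 under oxygen, with −0.06 and −0.01 over all genes.

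By role, the lists were short, and their counts were not tested against each other. Over all genes 1.64% were called lower at 0 h and 0.858% under oxygen. Of 17 glutathione transferases 3 were lower at 0 h and 8 under oxygen. Of 15 quinone, carbonyl and epoxide enzymes 2 were lower at 0 h and 4 under oxygen, and of 6 peroxide and thioredoxin enzymes 1 at 0 h and 3 under oxygen. Of 11 carboxylesterases and export pumps 2 were lower at 0 h and 3 under oxygen. None of 6 genes of glutathione synthesis and cystine uptake, 7 of heme and iron handling and 6 of NADPH supply was called at 0 h, while 3, 1 and 2 of these were lower under oxygen.

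Several textbook targets show what lay behind those counts. Gclc, the catalytic subunit of the rate-limiting enzyme of glutathione synthesis, was 1112 and 945.7 in wild type and 855.2 in the mutant at 0 h (−0.24 ± 0.23, adjusted p = 0.664). Its wild type level under oxygen reached 2618 at the median and the mutant's 1274, a difference of −1.16 ± 0.12. The mutant 0 h value was the lowest of all arrays, but close to wild type at 0 h. Gclm, the modifier subunit, was 641.4 and 999.5 against 835.8, so the mutant lay between the wild type arrays (0.05 ± 0.34). On type B another Gclm probe set read 653.5 and 971.4 against 335.7 and 548, without overlap (−0.73 ± 0.21, adjusted p = 0.0937), and −0.68 under oxygen (adjusted p = 0.0164).

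Nqo1, the quinone reductase, was dim, at 197.4 and 184.2 in wild type and 122.7 in the mutant (−0.42 ± 0.23, adjusted p = 0.394). Txnrd1, cytosolic thioredoxin reductase, was 1039 and 1010 against 648.6 (−0.60 ± 0.21, adjusted p = 0.173), and −1.14 under oxygen. Hmox1, which degrades heme, was 2145 and 2272 against 1728 and was not called at either (−0.34 and −0.29). None of these 5 genes was called at 0 h in any of the alternative settings.

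Gsta3 and Aox1 had 0 h differences as large as those of called genes but with larger errors. Gsta3, an alpha class glutathione transferase, was 1555 and 1695 in wild type and 586.5 in the mutant (−1.36 ± 0.37, adjusted p = 0.0882), and its oxygen difference was −1.69 ± 0.19. Aox1, an aldehyde oxidase, was 694.2 and 781.2 against 207.7 (−1.51 ± 0.43, adjusted p = 0.0977), with −2.06 ± 0.22 under oxygen. In both genes the mutant and wild type arrays did not overlap at 0 h, which was so for 53.8% of all tested probe sets. Aldh1a7, an aldehyde dehydrogenase on the club cell list, was 2406 and 1591 against 1007 (−0.91 ± 0.24, adjusted p = 0.0737) and −1.31 under oxygen.

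Abcc3 and Ephx1 showed the opposite order of sizes. Abcc3, a pump that exports glutathione and glucuronide conjugates, was 1482 and 1160 in wild type and 249.8 in the mutant at 0 h (−2.08 ± 0.35, adjusted p = 0.0141). Its mutant oxygen arrays ran from 1226 to 2217, and the oxygen difference was −0.56 (adjusted p = 0.219). Ephx1, microsomal epoxide hydrolase, was 2339 and 2745 against 1181 (−1.05 ± 0.21, adjusted p = 0.0285), with −0.23 under oxygen. In both the mutant 0 h array lay below every other array.

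Promoter sequences are shown for genes whose lower level in the mutant at 0 h and under oxygen came with an antioxidant response element core in the 250 bases before their start. Pir, which encodes pirin, an iron protein that acts with transcription factors, was 2525 and 2555 in wild type and 1465 and 1429 in the mutant (−0.76 ± 0.14, adjusted p = 0.0175). Acox2, a peroxisomal oxidase of branched acyl chains and bile acid intermediates, was 716.7 and 791.8 in wild type and 324.9 and 335.2 in the mutant (−0.95 ± 0.17, adjusted p = 0.0145). Gsta3 is added as an NRF2 list member that missed the threshold at 0 h. The sequences are from RefSeq on GRCm38.p6, given 5′ to 3′ on the strand of the gene: chrX:164269181-164269430 on the plus strand for Pir, chr14:8259020-8259269 on the minus strand for Acox2 and chr1:21240335-21240584 on the plus strand for Gsta3. Capitals mark the match to TGACNNNGC, read on both strands.
Pir: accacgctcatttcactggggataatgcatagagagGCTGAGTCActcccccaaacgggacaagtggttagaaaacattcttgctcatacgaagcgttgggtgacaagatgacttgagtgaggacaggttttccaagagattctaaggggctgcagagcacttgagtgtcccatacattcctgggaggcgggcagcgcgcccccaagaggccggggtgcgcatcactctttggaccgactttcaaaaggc
Acox2: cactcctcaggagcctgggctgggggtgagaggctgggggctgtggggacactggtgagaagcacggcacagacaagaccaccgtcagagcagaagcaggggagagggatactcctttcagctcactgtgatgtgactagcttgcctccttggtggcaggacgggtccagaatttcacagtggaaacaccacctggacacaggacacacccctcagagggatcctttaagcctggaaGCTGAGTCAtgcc
Gsta3: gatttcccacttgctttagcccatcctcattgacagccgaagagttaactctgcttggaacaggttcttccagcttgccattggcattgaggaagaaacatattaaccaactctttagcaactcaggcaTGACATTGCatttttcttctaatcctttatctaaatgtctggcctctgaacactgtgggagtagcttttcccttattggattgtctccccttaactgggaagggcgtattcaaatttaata

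The match in Pir and that in Acox2 share the same 9 letters on the opposite strand, while that of Gsta3 is on the strand of the gene. Acox2 has a second annotated start whose window holds the same match. Over all 27025 promoters, 11.5% hold TGACNNNGC, and 13.8% of the promoters of tested genes do. Among the 14 persisting lower genes with a promoter given, 3 had a match (Nfe2l2, Acox2 and Pir), and 14 of 66 NRF2 list genes did (21.2%). A match describes these letters in this window and is no measured binding site.

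Other genes with a lower level that persisted had varied known roles. Marco, a scavenger receptor of alveolar macrophages, was 262.2 and 255.7 in wild type and 33.38 in the mutant at 0 h (−1.59 ± 0.21, adjusted p = 0.00426). Under oxygen it ran from 853.1 to 1126 in wild type and from 226.1 to 436.9 in the mutant, so both genotypes were higher than at 0 h. The oxygen difference was −1.42 ± 0.11. At 0 h the mutant lay below the value used to filter dim probe sets, where a difference depends on the added constant. The sizes at 0 h and under oxygen are therefore not compared. Of the 12 macrophage markers tested 1 was called lower (Marco) and 1 higher (Fabp1) at 0 h, and their summed level on type A was 21851 in the mutant against 22693 to 24537 in wild type. Cd68 (−0.82, adjusted p = 0.062) and Adgre1 (−0.96, adjusted p = 0.14) were not called. In bulk lung RNA, fewer cells of a type and less RNA per cell cannot be told apart.

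Ctse, the aspartic protease cathepsin E, was 1361 and 1084 in wild type and 285 in the mutant (−1.83 ± 0.28, adjusted p = 0.00971), with −0.06 at 24 h and −1.83 at 72 h. On its other probe sets, of like brightness, Ctse was not called at 0 h (−1.13 and −0.73), and the oxygen differences were 0.09 and 0.08. Beyond the 12 largest, 9 more genes persisted with lower levels and are named here after their values were seen: Inpp5k, Reep6, Acox2, Ces1d, Ncf4, F13a1, St6galnac2, Pir and Aplnr. F13a1, the coagulation factor XIII A chain found in macrophages, was 600.8 and 443.7 in wild type and 182.5 and 270.3 in the mutant (−0.88 ± 0.20, adjusted p = 0.038), and a brighter F13a1 probe set was not called at 0 h (−0.28). Ncf4, a subunit of the phagocyte NADPH oxidase, was 953.5 and 1194 against 532 (−0.91 ± 0.20, adjusted p = 0.043). Aplnr, the apelin receptor of endothelium, was 4431 and 4472 against 2686 and 2520 (−0.75 ± 0.16, adjusted p = 0.0277). Of the 21 genes that persisted with lower levels, 7 were on an NRF2 list. Genes are counted from the 35 persisting probe sets with 1 gene symbol, while 3 more carried several symbols and 3 none. A probe set shared by Cyp2a5 and Cyp2a4 was 3021 and 2733 in wild type and 753 in the mutant (−1.83 at 0 h, −2.53 under oxygen). The others went in both directions, such as −2.45 and −2.28 without a symbol, and 2.68 and 1.74 for Gm2036 with 1810037I17Rik.

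Heat shock and collagen genes were among the 10 genes that persisted with higher levels in the mutant. Hspa1b, an inducible HSP70 chaperone, was 371.8 and 271.7 in wild type and 3933 in the mutant at 0 h. Under oxygen it ran from 964.7 through 6305 to 8240 in wild type and from 1789 through 7380 to 13180 in the mutant, with overlap. The mutant at 0 h thus lay within the range of the oxygen arrays of either genotype, and the wild type 0 h arrays were the lowest. The difference was 3.34 ± 0.21 (10.1-fold; adjusted p = 2.74e-05) at 0 h and 0.63 ± 0.11 (adjusted p = 0.0177) under oxygen, and these 2 differed from each other (2.71, adjusted p = 0.000322).

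Hspa1a, its near-identical neighbour, was 362.6 and 207.9 in wild type and 2365 in the mutant on type A. On type C another probe set gave 18.74 and 27.12 in wild type and 387.1 and 450.8 in the mutant. The differences at 0 h were 2.78 ± 0.30 and 2.03 ± 0.29, and 1.32 and 1.26 under oxygen. The promoters of both genes carry a heat shock element, GAANNTTC, in the 250 bases before their start, as 7.73% of all promoters do. The pattern GAANNTTC reads the same on both strands, though the matching letters need not. Both promoters are given for comparison, from RefSeq on GRCm38.p6, minus strand, chr17:34972157-34972406 for Hspa1a and chr17:34959239-34959488 for Hspa1b, with the match in capitals.
Hspa1a: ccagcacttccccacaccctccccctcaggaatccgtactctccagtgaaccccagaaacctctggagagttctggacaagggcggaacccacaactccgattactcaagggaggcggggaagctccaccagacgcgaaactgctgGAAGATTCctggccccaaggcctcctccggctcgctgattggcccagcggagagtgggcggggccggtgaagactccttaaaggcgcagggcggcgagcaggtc
Hspa1b: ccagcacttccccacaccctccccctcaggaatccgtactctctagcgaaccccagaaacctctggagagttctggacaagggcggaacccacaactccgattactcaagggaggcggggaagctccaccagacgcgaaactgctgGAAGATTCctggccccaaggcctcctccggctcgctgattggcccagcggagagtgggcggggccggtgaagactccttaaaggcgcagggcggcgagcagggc

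The 2 promoters are identical at 247 of 250 positions. The transcripts are alike as well, so signal from Hspa1a and Hspa1b cannot be told apart on these arrays. Of 15 heat shock genes tested, 4 were called higher and 0 lower at 0 h, where 1.88% of all genes were called higher. Hspe1, the mitochondrial chaperonin HSP10, did not persist (1.88 ± 0.26 at 0 h, −0.28 under oxygen), and Dnajb1, an HSP40 cochaperone, was unresolved (1.21 and 0.49). In wild type, 10 of the 15 were called higher under oxygen than at 0 h, against 5.27% of all genes.

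Spon2, a secreted matrix protein that binds bacteria and integrins, was 219.2 and 202 in wild type and 1145 and 1188 in the mutant at 0 h (2.01 ± 0.30, 4.03-fold; adjusted p = 0.00576). Its oxygen difference came from the later times, with −0.47 at 24 h, 2.75 at 48 h and 1.28 at 72 h. Another Spon2 probe set was not called (0.66 at 0 h, −0.64 under oxygen). Col3a1, a fibrillar collagen, was 813 and 873.4 in wild type and 2248 in the mutant (1.34 ± 0.20, adjusted p = 0.00846). Col1a1, the other main fibrillar collagen, was 820.3 and 636.7 against 1871 (1.28 ± 0.22, adjusted p = 0.0146). Neither collagen was higher in the mutant at 24 h (−0.25 and −0.23), while both were at 72 h (0.88 and 1.28, adjusted p = 0.0392 and 0.00705).

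Of 20 extracellular matrix and fibroblast genes 4 were called higher at 0 h (Col1a1, Col3a1, Col5a1 and Lox), with a median of 0.58, and 5 under oxygen, with a median of 0.39, where 0.739% of all genes were called higher. Lox, which cross-links collagen, did not persist (1.13 at 0 h, 0.11 under oxygen). Other probe sets of the collagens gave less. Dimmer or equally bright Col5a1 probe sets were not called at 0 h (−0.68, 0.09 and −0.06). Another Col1a1 probe set was called at 0 h (0.95) but not under oxygen (0.41). For Col3a1, a dimmer probe set was called at 0 h (1.475) but not under oxygen (0.26). A still dimmer Col3a1 probe set was called at neither (1.06 and 0.46). Stard4, a cholesterol carrier, was 367.5 and 592.5 in wild type and 1036 and 1374 in the mutant (1.15 ± 0.21, adjusted p = 0.0141), while its brighter probe set was not called (0.42). Ube2b, a ubiquitin-conjugating enzyme, was 1753 and 1141 against 2686 and 2753 (0.88 ± 0.19, adjusted p = 0.0295), with no overlap of genotypes under oxygen. On type A another Ube2b probe set was called at 0 h (0.96) but not under oxygen (0.01). Hspb2, Epb41l4a and Atf3 complete the group, and Atf3's brighter probe set missed the threshold at 0 h (0.67). The brighter Epb41l4a probe set, on type B, was not called and went the other way (−0.46 at 0 h, −0.14 under oxygen). A dimmer one on type A was not called either (−0.24 and 0.27).

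Mutant and wild type oxygen arrays had no overlap in 16 of the 27 lower and 3 of the 14 higher probe sets, and in 1.04% of all tested probe sets. The 41 were chosen by calls on these same oxygen arrays, so nothing is read from that count. The difference was larger under oxygen than at 0 h in 12 of the 41 probe sets and smaller in 29. In 3 of the 41 that difference between the times was itself called. Of the 18 persisting genes with another tested probe set, 17 had the same sign there and 7 were called the same way (38.9%). Of 193 genes that did not persist, 154 had the same sign in another probe set and 19 were called the same way (9.84%).

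Genes of stratified squamous epithelium had the largest called differences at 0 h among probe sets with 1 gene symbol, and none of the 12 called persisted. Lce3a, a late cornified envelope protein, was 36.43 and 85.78 in wild type and 42700 and 52550 in the mutant at 0 h on type C. In the mutant under oxygen it ran from 28.8 through 58.29 to 327.7. The mutant 0 h arrays stood alone, while the mutant oxygen arrays lay in the range of wild type. The difference was 8.17 ± 0.36 (log2; adjusted p = 1.48e-07) at 0 h and −0.01 ± 0.21 under oxygen.

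Defb4, an epithelial beta defensin, was 34.18 and 41.06 in wild type and 13710 and 15170 in the mutant at 0 h, and at most 47.63 in the mutant under oxygen. The 0 h difference was 6.67 ± 0.25. Krt13, a keratin of the upper layers of oesophagus and tongue, was 116.5 and 76.26 against 5065 and 4284, and at most 136.8 in the mutant under oxygen (4.43 ± 0.17 at 0 h). Krt4, its pairing keratin, was 1125 and 970.2 against 10920 on type A (9.79-fold; 3.29 ± 0.33), and 340.5 and 86.38 against 4433 and 4471 on type C. Sprr3, a cornified envelope protein of oesophagus, was 51.83 and 75.57 against 5804 (5.38 ± 0.49).

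The same held for Fam25c (160.5 and 113.6 against 22370 and 22570), for Krtdap, a keratinocyte differentiation protein (437.8 and 419.2 against 15830), and for Lce3f, Cysrt1, Klk10, Serpinb3a and Lce1a1, with differences of 3.97 to 4.41. Of 25 squamous genes tested, 12 were called higher and 0 lower, where 1.88% of all genes were called higher. The median was 1.10, and all 12 did not persist. Under oxygen 0 were called in either direction, with a median of −0.01. In all 12 the mutant 0 h arrays lay beyond every other array. Among the members not called were the keratins Krt14 (0.05), Krt1 (−0.89) and Krt17 (−0.65). The cornified envelope proteins Ivl (−0.03) and Lor (0.56) were not called either.

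The summed level of the squamous genes on type A was 63242 in the mutant at 0 h, 15688 and 19554 in wild type at 0 h and 13581 to 29484 under oxygen. On type C it was 61880 and 74508 in the mutant at 0 h and 483 to 1688 under oxygen. In the mutant 16 of the 25 genes were called lower under oxygen than at 0 h, and in wild type 1, against 14.5% and 4.72% of all genes. With the Gapdh ratio as a covariate, Lce3a (7.65), Defb4 (6.49), Fam25c (6.65), Sprr3 (7.02), Krtdap (4.50) and Krt13 (4.38) were called and did not persist. Whether squamous tissue entered the mutant 0 h sample was not tested.

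Skeletal muscle genes were also higher in the mutant at 0 h. Acta1, skeletal alpha actin, was 1229 and 1596 in wild type and 17120 in the mutant at 0 h (11.6-fold; 3.54 ± 0.30, adjusted p = 0.000245). Tnnc2, fast troponin C, was 540.5 and 591.4 against 5762 (9.07-fold; 3.18 ± 0.30). Myl1, a fast myosin light chain, was 753.2 and 741.4 against 5208 (6.40-fold; 2.68 ± 0.22). The single mutant array of type A carried all 3, and arrays of type B showed the same for Mybpc1, a myosin binding protein (96.78 and 117.7 against 1754 and 1721), and for Smpx, a small muscle protein (1826 and 1524 against 9101 and 8981).

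Of 20 skeletal muscle genes 9 were called higher and 0 lower at 0 h, where 1.88% of all genes were called higher. The median was 1.31, and 8 of the 9 did not persist, while Ckm, muscle creatine kinase, was unresolved (1.94 and 0.42). Under oxygen 0 were called higher and 1 lower, with a median of 0.05. Muscle signal also differed between 0 h and oxygen in wild type, where 9 of the 20 genes were called lower under oxygen, against 4.72% of all genes. Acta1 in wild type under oxygen ran from 85.88 to 849.5, below both wild type 0 h arrays. The summed level on type A was 43321 in the mutant at 0 h, 8877 and 9668 in wild type at 0 h and 2666 to 5974 under oxygen.

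Markers of heart and fat differed less. The summed level of 8 cardiac genes on type A was 44547 in the mutant at 0 h, 35799 and 37605 in wild type at 0 h and 9463 to 22357 under oxygen, and 0 of the 8 were called at 0 h. Myl7, the atrial myosin light chain, was 11730 and 11870 in wild type and 15980 in the mutant at 0 h (0.43 ± 0.19, adjusted p = 0.283). Adipoq, the fat cell hormone adiponectin, was 1682 and 1768 against 3625 and did not persist (1.04 ± 0.22 at 0 h, −0.40 under oxygen). Of 8 cartilage, 2 thyroid and 3 thymus genes 0 were called at 0 h. Over all genes 1.88% were called higher and 1.64% lower at 0 h, so nothing is read from such counts of 0. The part of attached tissue in these differences was not tested.

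Genes of the mitochondrial respiratory chain were also called higher at 0 h and not under oxygen. This list was drawn up by gene symbol after values had been seen. It takes in ATP synthase genes, assembly factors such as Sdhaf1 and Uqcc1, and the muscle isoforms Cox6a2, Cox7a1 and Cox8b. Of 76 genes 19 were called higher and 0 lower at 0 h, where 1.88% of all genes were called higher. The median was 0.65, and 13 did not persist and 6 were unresolved. Under oxygen 0 were called, and the median was −0.08. Ndufb3, a small subunit of complex I, was 2811 and 3065 in wild type and 14160 in the mutant at 0 h (4.72-fold; 2.24 ± 0.24, adjusted p = 0.00124), and 1428 to 2171 in the mutant under oxygen. Cox7b of complex IV was 2256 and 2577 against 7970 (1.69 ± 0.21) and Uqcrh of complex III 3154 and 4284 against 11490 (1.62 ± 0.29).

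In each class the genes called higher had a shorter median span than those called lower. Genes that did not persist and were higher in the mutant spanned 9.26 kb of the genome at the median, those that were lower 23.3 kb, and all tested genes 22.0 kb. The medians were 11.2 and 22.8 kb for unresolved and 13.9 and 29.1 kb for persisting genes. Of 39 cytosolic ribosomal protein genes 2 were called higher, with a median of 0.38. In wild type 22 of the 76 respiratory chain genes were called lower under oxygen than at 0 h, and in the mutant 53, against 4.72% and 14.5% of all genes. The 3′ to 5′ ratios of Gapdh and Actb were highest on the same arrays, and their part in the difference was not tested gene by gene.

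Some immune genes were among the lower calls that did not persist. Of 8 T and NK cell markers 2 were called lower, Cd3e and Thy1, but 5 were positive and the median was 0.09. Of 7 B cell markers 1 was called lower, with a median of −0.69. The immunoglobulin mu chain Ighm was 620.9 and 528.2 in wild type and 41.73 in the mutant on 1 probe set (−2.44 ± 0.19, adjusted p = 0.00012). Its brighter probe set, at 6751 and 6101 against 3783, was not called (−0.75, adjusted p = 0.0593). Cd3e, a chain of the T cell receptor complex, was 656.2 and 642.6 against 72.27 (−2.27 ± 0.43, adjusted p = 0.0242). In wild type under oxygen Cd3e ran from 75.91 to 103.1, and in the mutant from 85.25 to 505.5. The mutant 0 h array was thus the lowest of all and the wild type 0 h arrays the highest.

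Cd79a, the signalling chain of the B cell receptor, was 2526 and 1601 in wild type and 533.3 in the mutant (−1.77 ± 0.29, adjusted p = 0.0118), and Thy1 was 617.2 and 561.3 against 247.7 (−1.03). Of 30 immunoglobulin and T cell receptor genes by symbol, a list also drawn up after values had been seen, 6 were called lower and 0 higher at 0 h, where 1.64% of all genes were called lower. Under oxygen 0 were lower and 4 higher, where 0.739% of all genes were called higher. The summed level of 6 T and NK markers on type A was 3058 in the mutant at 0 h, below the 3193 and 3977 of wild type. That of the other 2, on type C, was 10693 and 11672 in the mutant at 0 h, within the 9313 and 12179 of wild type. The summed level of 7 B cell markers on type A was 11369 in the mutant, 18045 and 18440 in wild type at 0 h and 5434 to 9648 under oxygen.

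Other large decreases that did not persist included a growth factor, a chemokine and genes of membrane traffic. Tgfb1 was 518.4 and 555.1 in wild type, 37.45 in the mutant at 0 h and 827.2 to 1726 in the mutant under oxygen (−2.41 ± 0.39 at 0 h, 0.30 under oxygen). Cxcl5, a neutrophil chemokine of alveolar epithelium, was 814.1 and 1035 against 144.7 (−2.16 ± 0.26), and both genotypes were low under oxygen, at 117.5 to 419.8 over all oxygen arrays. Ocrl, an inositol phosphatase, was 1708 and 1427 against 311.7 and 328.4 on type B (−1.92 ± 0.22, adjusted p = 0.000787), with 0.07 under oxygen. C1qtnf1, Gga1, Fam172a, Trim16, Thyn1, Cln6 and Capn1 followed, with 0 h differences of −2.22 to −1.97. Other probe sets of C1qtnf1 (0.03 and −0.52) and of Fam172a (−0.08, −0.02 and −0.43) were not called at 0 h.

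Of 14 antioxidant enzymes outside the NRF2 lists 1 was called lower at 0 h, Sod3, and 0 higher. Sod3, the secreted superoxide dismutase of vessel walls, was 6911 and 5404 in wild type and 2176 in the mutant at 0 h, and 8584 to 12120 in the mutant under oxygen (−1.46 ± 0.26, adjusted p = 0.0187; 0.42 under oxygen). Gpx4, which reduces lipid peroxides, was 2849 and 4045 against 7401 and was not called at 0 h (1.11 ± 0.27, adjusted p = 0.0616). S100a9, a calgranulin of neutrophils, was 2307 and 3051 against 5994, higher at 0 h (1.15 ± 0.25, adjusted p = 0.0388) and lower under oxygen (−0.96 ± 0.13, adjusted p = 0.00402). Cnn1, smooth muscle calponin, did the reverse (−0.81 ± 0.18 at 0 h, 0.88 ± 0.09 under oxygen). Neither gene stands for its list at 0 h. Of 11 neutrophil genes 2 were called higher, against 1.88% of all genes, but 7 were negative and the median was −0.27. Of 8 smooth muscle genes 1 was called lower, against 1.64% of all genes, while 4 were positive and the median was −0.09.

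The unresolved group held genes such as Cyp2f2, a cytochrome P450 of club cells, which was 13620 and 13470 in wild type and 5096 in the mutant (−1.40 ± 0.23, adjusted p = 0.0141; −0.33 under oxygen). Pglyrp1, a peptidoglycan recognition protein of neutrophils, was 3138 and 1855 against 468.1 (−2.19 ± 0.38) and −0.56 under oxygen. Myrip was −2.28, Immt −2.06, Fads2b 2.54, Lyg1 2.34, Abra 2.10 and Plxna2 2.04 at 0 h, with oxygen differences between −0.91 and 0.86. None was called under oxygen, and none was called as different from oxygen.

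**Figure D4:**
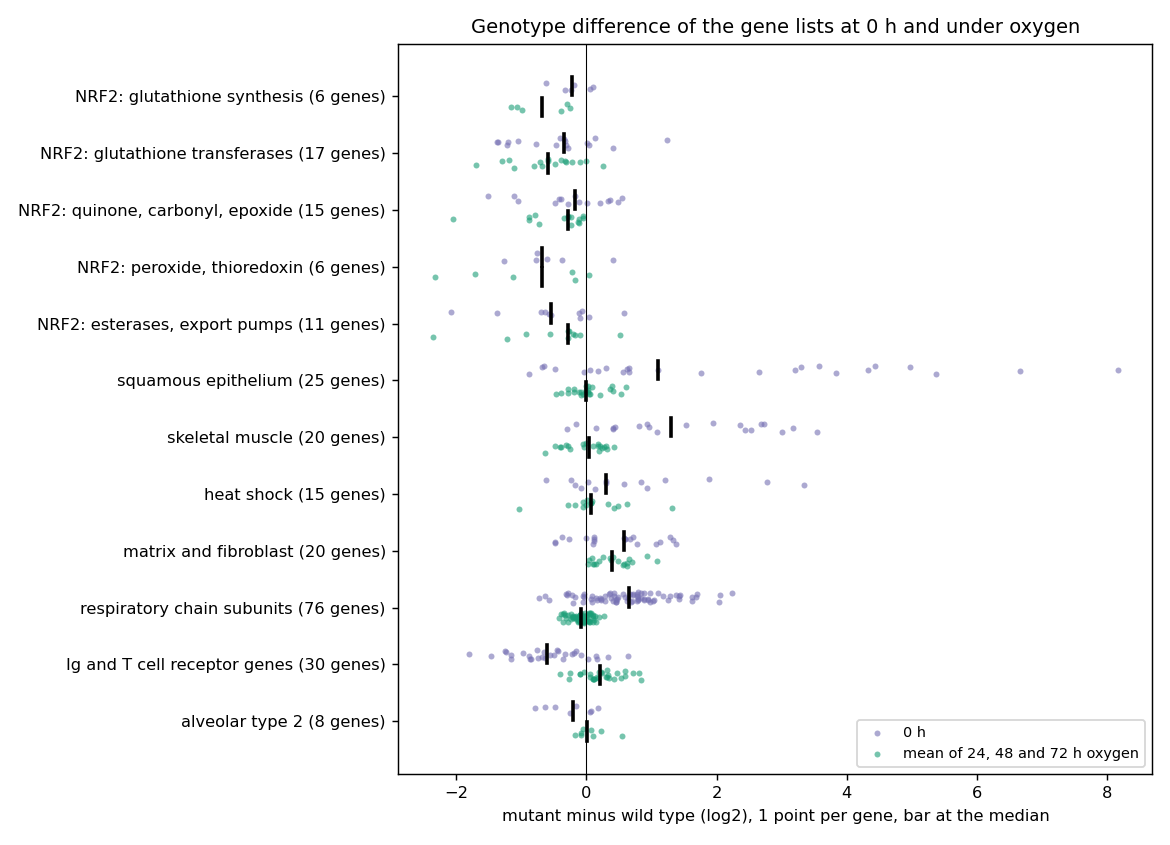
Genotype difference (mutant minus wild type, log2) of the tested genes of 12 lists at 0 h (purple) and as the mean of the oxygen times (green), 1 point per gene with the median as a bar. The squamous median is 1.10 at 0 h and −0.01 under oxygen, the skeletal muscle median 1.31 and 0.05, the respiratory chain median 0.65 and −0.08, and the glutathione transferase median −0.34 and −0.59.

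Markers of resident lung cells were mostly not called. Of 8 alveolar type 2, 7 alveolar type 1, 5 ciliated and 12 endothelial genes 0 were called at 0 h. Their medians were −0.20, −0.38, 0.12 and −0.39, and 8 of the 12 endothelial genes were negative. Over all genes 1.88% were called higher and 1.64% lower, so nothing is read from these counts of 0. Sftpa1, a surfactant protein, was 82680 and 103300 in wild type and 57600 and 75230 in the mutant (−0.49 ± 0.27, adjusted p = 0.398). Of 5 club cell genes 1 was called lower (Cyp2f2), with a median of −0.63 and 3 negative. Scgb1a1, the club cell secretory protein, was 15220 and 14180 against 24770 (0.75 ± 0.31) and was not called. Sftpa1 and Scgb1a1 thus gave high signal on the 0 h arrays of both genotypes. The summed level of 10 endothelial genes on type A was 37410 in the mutant at 0 h, 48917 and 52452 in wild type at 0 h and 55728 to 91236 under oxygen.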

How the data were processed

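Lung RNA was measured on 46 arrays of 3 types. The authors deposited a linear-scale intensity for each probe set. How they made it from the scans is not given in the sources used here. Their 2%-trimmed mean was 800.2 to 800.5 on every array, so the deposited scaling was kept. Control probe sets were removed. Before log2 was taken, a constant was added (78.5 for A, 126 for B, 106 for C), the type's 25th percentile. Probe sets above the 40th percentile (196, 273 and 210, here called the filter value) on at least 2 arrays were tested, 26821 in all. Of these, 21856 carried 1 gene symbol in the array annotation, 546 several and 4419 none. limma 3.58.1 in R 4.3.3 was fitted per array type with 8 group means, 2-sided, with Benjamini-Hochberg adjustment over all 3 types. Where a group has a single array, its spread is taken from the other groups. Folds come from fitted differences, which the added value makes smaller. The depth of an array is not a count, and the number of arrays limits the precision. A gene on a list is represented by its brightest probe set.

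The genes named were Nfe2l2, the 12 largest persisting and not persisting differences and the 4 largest unresolved ones in each direction without overlap at 0 h, list members with the smallest p, and a set given by name. The comparison, lists and names were chosen with earlier results of these data known. The lists were NRF2 targets by role, other antioxidant enzymes, NRF2 repressors and partners, heat shock, immediate early, matrix, interferon, p53, circadian and cell or tissue markers. Alternatives were a floor, quantile normalization, other filters, 0 h arrays alone, a replicate block, trended and robust eBayes, the Gapdh ratio as a covariate, leaving out replicates and other rules of persistence. The procedure was tested on simulated data.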

Additional observations from a re-analysis of the deposited data

Results flagged for a closer look

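For 624 probe sets the genotype difference at 0 h differed from that under oxygen (adjusted p under 0.05, limma). Among the genes described, 50 probe sets of 48 genes met this test, with adjusted p up to 0.0493. The 0 h difference was the more positive in 31 of them and the more negative in 19. Each value below is the 0 h genotype difference minus the oxygen genotype difference, on the log2 scale.

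In squamous and other epithelial genes the value was 8.18 for Lce3a, 6.95 for Defb4, 5.96 for Fam25c, 5.44 for Krtdap, 5.36 for Sprr3, 4.49 for Lce1a1, 4.46 for Cysrt1, 4.40 for Krt13, 4.33 for Serpinb3a, 4.33 for Lce3f, 4.19 and 3.34 for Krt4, 3.92 for Klk10 and 2.37 for Perp. In muscle and fat genes it was 3.27 for Acta1, 3.25 for Mybpc1, 3.17 for Myl1, 2.88 for Tnnc2, 2.75 for Smpx, 2.52 for Tnnt3 and 1.44 for Adipoq. In immune genes, growth factor and chemokine it was −2.86 and −0.97 for Ighm, −2.85 for Cd3e, −1.65 for Cd79a, −1.36 for Thy1, −2.70 for Tgfb1 and −1.62 for Cxcl5. In stress and antioxidant genes it was 2.71 for Hspa1b, 2.17 for Hspe1, 1.72 for Mgst2, 1.46 for Gpx4, −1.88 for Sod3, 1.28 for Aldh3a1 and 0.99 for Ces1f. Among the remaining genes it was positive at 2.12 for S100a9, 1.72 for Ifi27l2a, 1.39 for Camp and 1.01 for Lox. It was negative at −2.41 for Thyn1, −2.29 for C1qtnf1, −2.19 for Gga1, −2.12 for Fam172a, −1.99 for Ocrl, −1.86 for Capn1, −1.71 for Trim16, −1.69 for Cnn1, −1.67 for Cln6, −1.37 for Junb and −1.18 for Nr1d2. The Ces1f value depends on the constant added before log2, because the mutant lay below the filter value. The causes of all these differences were not tested.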

How the results depend on the processing

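The calls at 0 h numbered 651 to 1092 when a floor, quantile normalization, other filters or trended and robust eBayes were used, and 39 to 60 persisted. The 60th percentile filter gave 964 calls of the difference between 0 h and oxygen and 693 calls that did not persist, and trended and robust eBayes gave 970 and 715. The 0 h arrays alone gave 148 calls, of which 11 persisted and 112 did not. With the Gapdh ratio as a covariate there were 120 calls, 8 that persisted, 107 that did not and 259 of the difference. Requiring the same sign at each oxygen time without overlap left 20 persisting. Averaging 48 and 72 h only, chosen after seeing the data, gave 397 calls of the difference and 293 that did not persist. Leaving out 1 replicate at a time gave 152 to 738 calls at 0 h, 68 to 342 under oxygen, 133 to 664 of the difference, 7 to 41 persisting and 96 to 487 not persisting. With the replicate number as a block, 863 were called at 0 h, 49 persisted and 532 did not. Same-numbered arrays correlated at −0.10 to 0.37 in their deviations. Whether they share more than a number cannot be told from these values. Gclm became −0.12 with the block and ranged from −0.24 to 0.34 without single replicates. Ces1g on type B ranged from −0.34 to 0.12 without single replicates. With the Gapdh ratio Acta2 was 0.17, Gsta4 0.23 and Ces1g on type B 0.013. The cause of these changes was not tested. Among the values of single genes under the alternatives, 2448 kept direction and side of the threshold, 268 lost the call, 21 gained it and 6 turned sign. The single mutant array of type A and the dim probe sets limit the precision.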
